A study of Homo sapiens with 6 samples.

Results

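Replication-dependent histone genes encode the H1, H2A, H2B, H3 and H4 proteins that package newly made DNA. They were described in the human colorectal cancer line SW480 with and without overexpression of HNF4A, a DNA-binding nuclear receptor of liver and intestine. The members were the rows of the deposited expression table whose symbol begins with HIST1, HIST2, HIST3 or HIST4 followed by H1, H2A, H2B, H3 or H4, with pseudogene names ending in PS or P left out. The rule found 89 rows, of which 15 had pseudogene names, and so kept 74 of the 60694 rows in all. By class these were 6 H1, 17 H2A, 22 H2B, 14 H3 and 15 H4 genes, and by cluster 55 HIST1, 14 HIST2, 4 HIST3 genes and the single gene HIST4H4. GENCODE annotates 4 of the 74 as pseudogenes although their names do not say so (HIST2H2BA, HIST2H2BC, HIST2H2BD and HIST3H2BA).

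Both groups held 3 libraries of SW480 cells grown in RPMI1640 medium with serum and carrying a lentiviral construct by their titles. The control group is titled lenti, with the genotype control, and the other lenti-HNF4a, with the genotype overexpressing HNF4a. The labels call the replicates biological, and whether the transduced cells were a pool or 1 clone was not stated in the labels, so the construct and other differences between the cell populations cannot be told apart. The series design calls the libraries mRNA libraries sequenced as read pairs, the molecule label reads total RNA, and how mRNA was selected was not stated. In each library 13905 to 14213 rows reached 1 FPKM (fragments mapped to a gene, scaled by its transcript length and by the library's mapped fragments). HNF4A itself was at 6.57 to 8.81 FPKM in the controls against 720.6 to 1143 FPKM in HNF4A overexpression (log2 change 6.70 ± 0.16 SE, limma adjusted p = 9.93e-07, exact two-sided permutation p = 0.1, the smallest that 3 against 3 libraries allow), so every library matched its label. The epithelial markers EPCAM and KRT8 stood at 173 to 182 and 1972 to 2403 FPKM. The intestinal markers KRT20, CDX1, CDH17 and GPA33 were under the test's filter. Of the 11 epithelial markers 7 were tested, of which VIL1 and CDH1 rose (limma adjusted p = 0.00182 and 0.00522), 0 fell and 5 did not pass. Among all tested genes 3.4 percent were called higher and 1.39 percent lower. Markers of other cell types were low but higher in HNF4A overexpression. The 5 leukocyte markers summed to 1.14 to 1.66 FPKM in the controls against 1.755 to 2.605 FPKM in HNF4A overexpression, the 5 fibroblast markers to 1.91 to 2.68 and 3.16 to 3.45 FPKM, and the 4 endothelial markers to 0.184 to 0.239 and 0.268 to 0.411 FPKM, with CDH5 at 0 in every library. Their part in the histone values was not tested. In bulk RNA, fewer cells that express a histone gene and less of its RNA per cell cannot be told apart.

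Most histone mRNAs of dividing cells differ from other mRNAs at their 3′ end. They carry no poly(A) tail and end in a conserved stem-loop, which is bound by SLBP, and their genes are transcribed in S phase under the coactivator NPAT. A subset of these genes also gives transcripts that run past the stem-loop to a polyadenylation signal, mainly in cells that leave the cycle or differentiate. Libraries enriched for polyadenylated RNA therefore see mainly this subset.

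The stem-loop was looked up in the annotated transcripts, since it marks where the tail-less form of each mRNA ends. The motif searched was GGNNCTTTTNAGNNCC, 16 bases read on the transcript strand, with N for any base. It was present in 34 of the 74 members, and in 0.264 percent of all 19702 protein-coding genes in GENCODE 29 (52 genes, 21 of them with names outside the HIST series). The sequences below are those of abundant members that hold it, written 5′ to 3′ with the motif in capitals and with GRCh38 coordinates, from the GENCODE 29 transcripts.
HIST1H2AC, chr6:26124665-26124690, plus strand: caaaGGCTCTTTTCAGAGCCccccta
HIST1H2BC, chr6:26123466-26123491, minus strand: caaaGGCTCTTTTAAGAGCCacccag
HIST1H2BD, chr6:26158583-26158608, plus strand: caaaGGCTCTTTTAAGAGCCacgcat
HIST1H4H, chr6:26285125-26285150, minus strand: caaaGGCCCTTTTCAGGGCCgcccac
HIST2H2BE, chr1:149886182-149886207, minus strand: caaaGGCTCTTTTCAGAGCCacccac
HIST3H2A, chr1:228457363-228457388, minus strand: taaaGGCTCTTTTCAGAGCCacctac
HIST4H4, chr12:14770718-14770743, minus strand: aaaaGGCCCTTTTCAGGGCCcccaaa
HIST1H4J, chr6:27824455-27824480, plus strand: aaaaGGCCCTTTTCAGGGCCacccta
The form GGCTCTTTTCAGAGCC was held by 18 members, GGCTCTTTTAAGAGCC by 5 and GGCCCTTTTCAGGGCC by 5. HIST1H2AC, HIST1H4H, HIST2H2BE and HIST4H4 have an annotated transcript that continues 1128, 1655, 1729 and 1510 bases past the motif. That of HIST1H4J stops 6 bases after it.

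Levels differed widely between histone genes. In all, 90.6 percent of the histone FPKM over the 6 libraries lay in 9 genes with a mean of at least 10 FPKM, and 48.6 percent in HIST1H2BK alone. These 9 genes were HIST1H2BK, HIST1H1C, HIST1H2BJ, HIST1H2BD, HIST1H2AC, HIST1H4H, HIST3H2A, HIST1H2BC and HIST2H2BE. They include each of the 8 genes of a list of known polyadenylated histone transcripts, which was drawn up with earlier results of these data known, and the other one is HIST3H2A. At the other end 7 members were listed at 0 in all 6 libraries (HIST1H2AA, HIST1H4F, HIST1H4G, HIST1H4K, HIST2H2AA3, HIST2H3A and HIST2H3C). A further 34 were above 0 but under the filter of at least 1 FPKM in at least 3 libraries, with means of at most 0.849 FPKM.

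**Figure D1:**
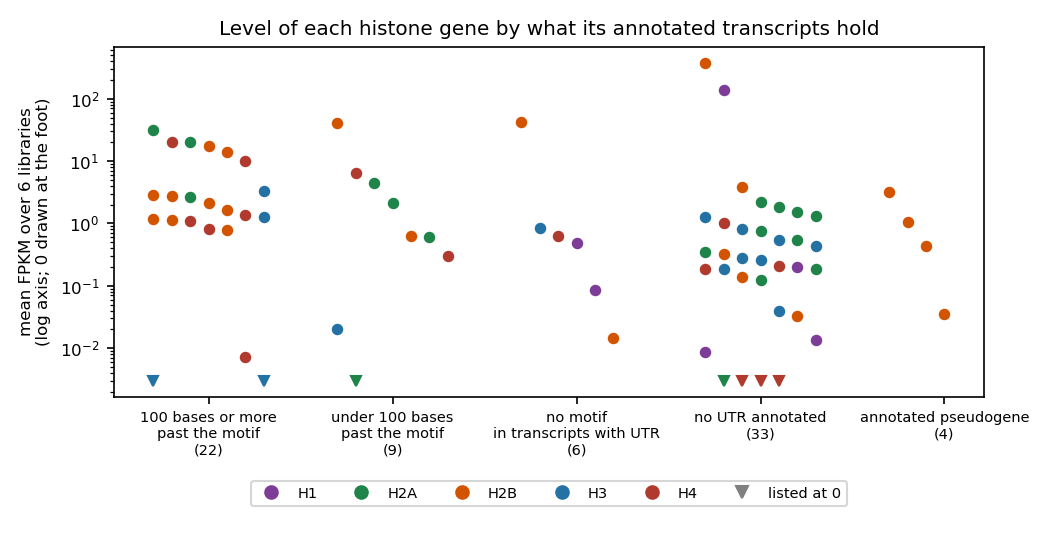
Mean FPKM over the 6 libraries (log axis) of each of the 74 histone genes, one point per gene coloured by class, grouped by what its GENCODE 29 transcripts hold; triangles are genes listed at 0. Of the 22 genes with at least 100 annotated bases past the stem-loop motif 17 averaged 1 FPKM or more, against 9 of the 33 with no annotated UTR, which include HIST1H2BK at 377 FPKM.

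Annotation and level went together only in part. Of the 22 members with an annotated transcript of at least 100 bases past the motif, 17 averaged 1 FPKM or more, with a median over the 22 of 1.88 FPKM. Of the 9 whose motif-holding transcripts end within 100 bases of it, 4 did (median 0.639 FPKM). HIST1H2BD, one of these, also has an annotated transcript without the motif, and the gene extends to position 26171349. A further 33 members are annotated as coding sequence alone, so their 3′ ends cannot be read from this annotation, and 9 of them averaged 1 FPKM or more (median 0.278 FPKM). HIST1H2BK and HIST1H1C are among the latter. FPKM divides by the assumed transcript length, so the level of a gene whose true transcript is longer than its annotation is set on an uncertain scale.

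Reads of near-identical copies limit some values. Of the 74 members 19 share at least 1 exact window of 150 bases, the read length in the labels, with another member's transcripts. HIST2H4A, at 1.35 FPKM on average, shares every window of one of its transcripts with HIST2H4B, which was listed at 0 in all libraries but control 3. HIST1H4J shares 72.8 percent of its windows with HIST1H4K, and the pair HIST2H3A and HIST2H3C, both at 0, share all of theirs. Values of these copies are therefore uncertain one by one. None of the 9 abundant genes shared a window with another member. HIST1H2BD overlaps LARP1P1 on its own strand and AL353759.1 on the other, so its reads may be mixed with theirs.

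The comparison asks how the histone genes stand with added HNF4A. Of the 33 histone genes that passed the filter 2 fell, HIST1H4H and HIST2H3D, 0 rose and 31 did not pass (limma with Benjamini-Hochberg adjustment over 14106 genes), where 1.39 percent of all tested genes were called lower and 3.4 percent higher. At an unadjusted p under 0.05 the counts were 13 lower and 0 higher, against 7.29 and 10.8 percent of all tested genes. In 9 histone genes every HNF4A overexpression library lay below every control library, which was so for 10.1 percent of all tested genes, and in 0 was it the reverse (13.8 percent). Log2 changes of the 33 ranged from -0.92 to 0.08 with a median of -0.26, beside 0.01 for all tested genes, and 30 of the 33 were below 0, as were 46.9 percent of all tested genes. Of the 33, 8 reached 1 FPKM in all 3 controls but not in all 3 overexpression libraries, and so passed the filter with help of the group where they were higher. They are HIST1H2AI, HIST1H2AM, HIST1H2AL, HIST1H2BH, HIST2H4A, HIST1H4I, HIST1H2BF and HIST2H3D, of which the last 4 are among the genes without overlap. The counts describe the genes that passed and not the 74.

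**Figure D2:**
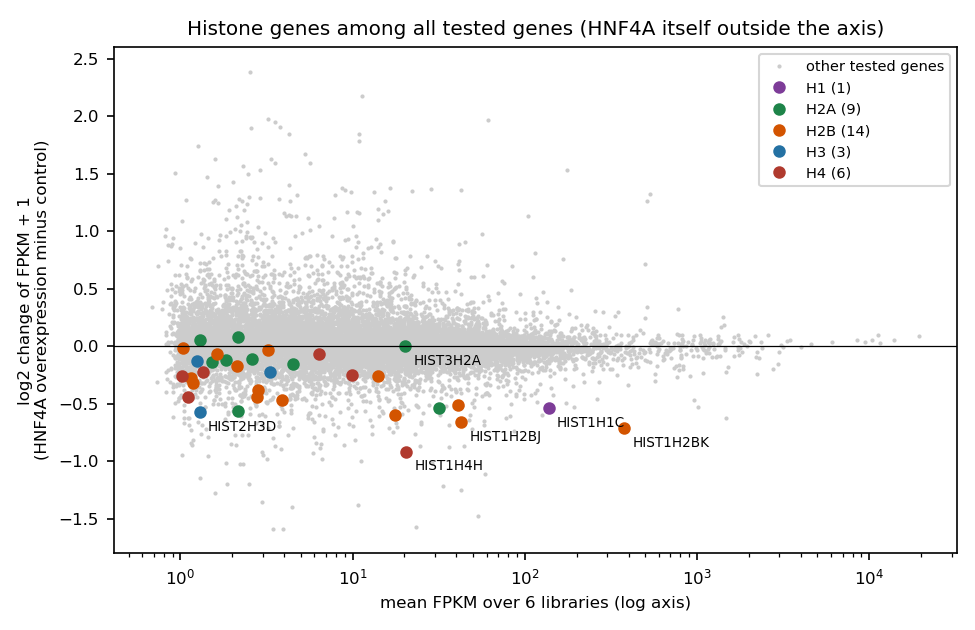
Log2 change of FPKM + 1 (HNF4A overexpression minus control) against mean FPKM over 6 libraries (log axis) for the tested genes, with the 33 tested histone genes coloured by class and the other genes in grey. The histone genes lie mostly below the 0 line, down to -0.92 for HIST1H4H, while HIST3H2A lies on it.

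HIST1H4H, a histone H4 gene on the minus strand of chromosome 6 from 26277609 to 26285638, was at 22.6, 26.2 and 31.7 FPKM in the controls and at 12.4, 10.7 and 19.0 FPKM in HNF4A overexpression. The groups did not overlap, and HNF4A overexpression 3 was the closest to the controls. HIST1H4H fell from 26.8 ± 4.59 to 14.02 ± 4.41 FPKM (SD, n = 3), by 47.7 percent (log2 change -0.92 ± 0.20 SE, limma adjusted p = 0.0374). The call was lost without the filter on low values (adjusted p = 0.193) and without the mean-variance trend (0.0656). With 1 library removed the adjusted p was 0.00809 without HNF4A overexpression 3 and 0.0545 to 0.117 without each of the others.

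HIST2H3D, which encodes the H3.2 form of histone H3, lies on chromosome 1 from 149813271 to 149813681 on the minus strand. Control libraries held 1.78, 1.51 and 1.93 FPKM and HNF4A overexpression libraries 0.842, 0.648 and 1.04 FPKM. HIST2H3D thus passed the filter through its controls, since 1 overexpression library reached 1 FPKM. All 3 overexpression values lay below the lowest control, and the gene fell from 1.74 ± 0.209 to 0.844 ± 0.198 FPKM (log2 change -0.57 ± 0.12 SE, limma adjusted p = 0.0398). With a pseudocount of 0.1 in place of 1 the log2 change was -0.98 (adjusted p = 0.0484). The call was lost without the filter (adjusted p = 0.147), and with 1 library removed it was kept without HNF4A overexpression 3 (0.0482) and lost without each of the others (0.0694 to 0.132). The gene shares 6.87 percent of its windows with HIST2H3A and HIST2H3C.

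HIST1H2BK, an H2B gene on chromosome 6 from 27146418 to 27146798 on the minus strand, was the most abundant histone gene. It was at 399.7, 496 and 499.7 FPKM in the controls and at 215, 293 and 359 FPKM in HNF4A overexpression. The groups did not overlap, with means of 465 ± 56.8 and 289 ± 72.1 FPKM, but the difference missed the threshold (log2 change -0.71 ± 0.17 SE, limma adjusted p = 0.0567). It passed after the libraries were rescaled to a common median (adjusted p = 0.0496) and without HNF4A overexpression 3 (0.0232). Without each of the other libraries the adjusted p was 0.0717 to 0.167. With the replicate number as a block, a pairing that the labels do not give, it was 0.00822. HIST1H2BJ, another H2B gene of the HIST1 cluster, was at 42.5, 49.4 and 65.3 FPKM in the controls and at 25.8, 36.4 and 35.6 FPKM in HNF4A overexpression, again without overlap (adjusted p = 0.0702).

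HIST1H1C encodes the linker histone H1.2, which binds DNA between nucleosomes, and made up 99.4 percent of the H1 total. It lies on chromosome 6 from 26055787 to 26056428 on the minus strand. Its control values were 124, 189.8 and 174 FPKM and its overexpression values 86.1, 109 and 141 FPKM. Control 1 lay below HNF4A overexpression 3, so the groups overlapped (log2 change -0.54 ± 0.20 SE, limma adjusted p = 0.195). The next H1 gene, HIST1H1E, was at 0.326 to 0.476 FPKM in the controls against 0.328 to 0.722 FPKM in HNF4A overexpression, under the filter.

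HIST1H2BD, HIST1H2AC and HIST1H2BC, which lie within the first part of the HIST1 cluster, shared this overlap. HIST1H2BD was at 42.0, 43.4 and 58.8 FPKM in the controls against 27.1, 30.0 and 44.6 FPKM in HNF4A overexpression (adjusted p = 0.197). HIST1H2AC was at 30.3, 40.6 and 42.5 FPKM and 20.7, 24.8 and 32.2 FPKM (adjusted p = 0.129). HIST1H2BC was at 17.7, 20.5 and 25.8 FPKM and 11.1, 12.4 and 18.3 FPKM (adjusted p = 0.124). In each of these 3 genes HNF4A overexpression 3 lay above control 1 and below the other controls or among them, and the other overexpression libraries lay below every control. HIST2H2BE, an H2B gene outside the cluster on chromosome 6, was at 13.1 to 17.7 FPKM and 10.5 to 16.4 FPKM (adjusted p = 0.462).

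HIST3H2A and HIST1H4J had nearly equal means in both groups. HIST3H2A, an H2A gene on chromosome 1 from 228456979 to 228457873, was at 20.8, 21.1 and 18.8 FPKM in the controls against 20.8, 19.96 and 20.02 FPKM in HNF4A overexpression (log2 change 0.0036 ± 0.062 SE, adjusted p = 0.985), and its log2 change was -0.0097 after the libraries were rescaled to a common median. HIST1H4J averaged 6.52 ± 0.671 and 6.20 ± 1.05 FPKM (adjusted p = 0.835). HIST4H4, whose gene stands alone on chromosome 12, was at 10.03, 10.3 and 12.02 FPKM and 6.74, 9.96 and 10.4 FPKM (adjusted p = 0.436), and HIST1H2AE at 4.21 to 5.45 and 4.05 to 4.35 FPKM (adjusted p = 0.461).

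**Figure D3:**
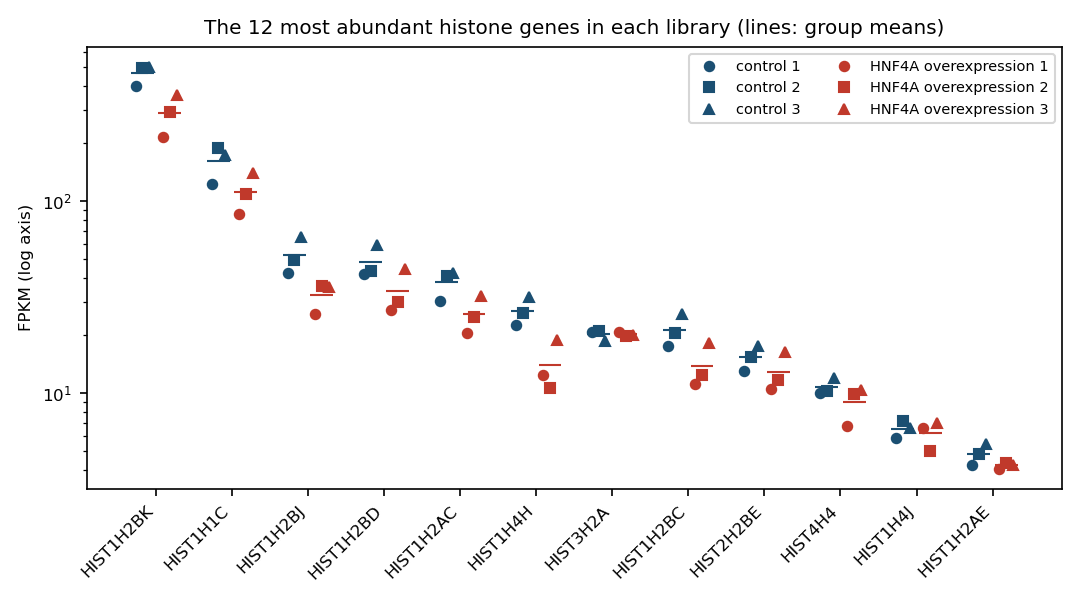
FPKM (log axis) of the 12 most abundant histone genes in each of the 3 control (blue) and 3 HNF4A overexpression (red) libraries, with lines at the group means. HIST1H2BK, HIST1H2BJ and HIST1H4H show no overlap between groups, and HIST3H2A is at 18.8 to 21.1 FPKM in every library.

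The libraries of a group stood in nearly the same order for most abundant members. In 8 of the 9 genes with a mean of at least 10 FPKM control 1 was the lowest control, and in 7 of the 9 control 3 was the highest. HNF4A overexpression 1 was the lowest of all 6 libraries in 7 of the 9, and HNF4A overexpression 3 was the highest of its group in 7 of the 9. Summed over the 9 genes, control libraries held 712, 903 and 935 FPKM and HNF4A overexpression libraries 429, 548 and 686 FPKM, so HNF4A overexpression 3 and control 1 were the neighbouring libraries of the groups. Exceptions to one or more of these orders included HIST3H2A, with its lowest control in control 3, HIST1H1C, with its highest in control 2, and HIST1H2BJ and HIST1H4H, whose highest and lowest overexpression value, respectively, was in HNF4A overexpression 2.

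By class, the summed FPKM over every member was lower in each HNF4A overexpression library than in each control for H2B, H3 and H4, and the groups overlapped for H1 and H2A. No test was run on these sums. H2B, 22 genes of which HIST1H2BK gave 73.3 percent of the total, summed to 537, 650.3 and 694 FPKM in the controls against 306, 403 and 496 FPKM in HNF4A overexpression. The mean was lower by 36.0 percent (627 ± 80.8 against 402 ± 94.8 FPKM). Of its 14 tested genes 14 had log2 changes below 0, from -0.71 to -0.02, and 0 passed the threshold. Among all tested genes 46.9 percent were below 0. The 4 annotated pseudogenes are all in this class. Of these HIST2H2BC and HIST2H2BD were tested, with log2 changes of -0.03 and -0.02, and share sequence with each other.

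The 15 H4 genes summed to 44.3, 48.5 and 57.4 FPKM in the controls against 30.1, 31.1 and 42.4 FPKM in HNF4A overexpression. HIST1H4H gave 48.3 percent of that total. Without it the log2 ratio of the means went from -0.54 to -0.18 and the groups overlapped, with HNF4A overexpression 3 above control 1. The 14 H3 genes summed to 10.8, 10.3 and 12.3 FPKM in the controls against 7.66, 6.38 and 8.31 FPKM in HNF4A overexpression. Of these 14 genes 3 were tested and the others were under the filter. Among those under it, HIST1H3C averaged 1.09 FPKM in the controls and 0.519 FPKM in HNF4A overexpression. HIST1H3J averaged 0.770 and 0.0982 FPKM, and HIST1H3I, HIST1H3D and HIST3H3 had the higher mean in HNF4A overexpression. The H3 sum is thus made of low values. The most abundant H3 gene, HIST1H3H, averaged 3.67 ± 1.03 and 2.99 ± 0.758 FPKM (adjusted p = 0.605).

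The 17 H2A genes summed to 68.4, 79.6 and 83.2 FPKM in the controls against 58.0, 61.2 and 74.5 FPKM in HNF4A overexpression, a log2 ratio of the means of -0.26 that went to -0.022 without HIST1H2AC. The 6 H1 genes, nearly all HIST1H1C, had a log2 ratio of -0.53.

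**Figure D4:**
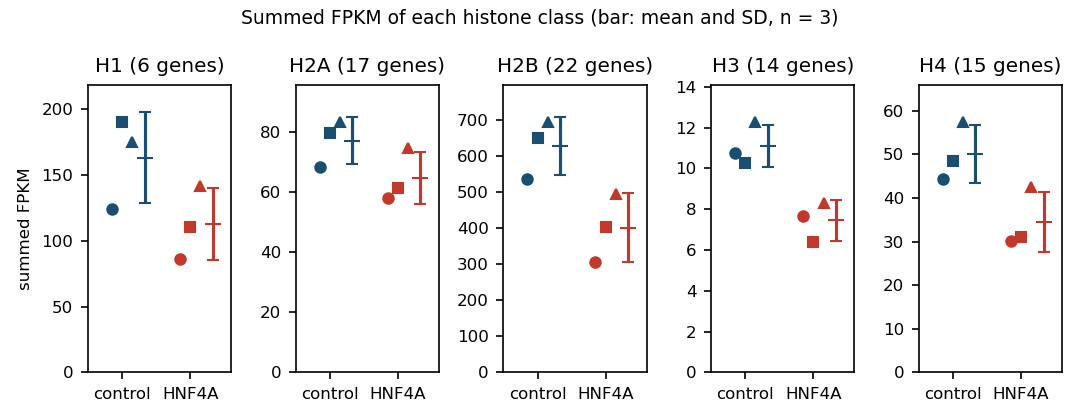
Summed FPKM over all genes of each histone class in each library, with panels from 0 and the mean and SD (n = 3) beside the points. The H2B, H3 and H4 sums of the 3 HNF4A overexpression libraries lie below all 3 controls, and the H1 and H2A groups overlap. Of the 14 H3 genes 3 were tested and the others were under the filter. Without HIST1H4H the H4 groups also overlap.

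By cluster, the HIST1 genes on chromosome 6, between 25726132 and 27893843, summed to 726, 917 and 957 FPKM in the controls against 439, 557 and 701 FPKM in HNF4A overexpression. The first group of 34 genes, up to position 26285638, had a log2 ratio of the means of -0.54, and the second group of 21 genes, from 27125897 on, one of -0.66. HIST1H1C gave 51.4 percent of the first group's total and HIST1H2BK 84.0 percent of the second's. The 14 HIST2 genes on chromosome 1 summed to 26.6, 29.4 and 32.8 FPKM and 20.9, 24.2 and 29.1 FPKM, with overlap between the groups. HIST2H2BE gave 52.0 percent of that total. The 4 HIST3 genes, from 228424845 to 228464626 on chromosome 1, summed to 20.6 to 22.7 FPKM in the controls against 21.4 to 22.4 FPKM in HNF4A overexpression, and HIST3H2A gave 92.3 percent of this.

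Promoters were searched since abundant members varied together between libraries. Of the 74 members 65 had a promoter in the RefSeq table (GRCh38.p14), and the 250 bases before the start were searched on both strands. The CCAAT box, CCAAT, was present in 84.6 percent of them against 32.9 percent of all 27305 promoters, in 18 of 18 H2B, 16 of 16 H2A and 12 of 12 H3 promoters, but in 3 of 13 H4 promoters. The octamer ATTTGCAT, the site of OCT1 (POU2F1) in H2B promoters, was present in 14 of 18 H2B and 11 of 16 H2A promoters, and in 0 of the 31 others, against 1.68 percent of all. The TATA box TATAAA was present in 67.7 percent against 11.3 percent. The motif CAAAGTCCA, preferred by HNF4 proteins, was present in 0 of the 65 windows and in 0.304 percent of all, which says nothing about where HNF4A binds. The most abundant H2B gene and the H4 gene that fell are shown over the 200 bases before their start, 5′ to 3′ on the minus strand, with these motifs on either strand in capitals.
HIST1H2BK, chr6:27146856-27147055, minus strand: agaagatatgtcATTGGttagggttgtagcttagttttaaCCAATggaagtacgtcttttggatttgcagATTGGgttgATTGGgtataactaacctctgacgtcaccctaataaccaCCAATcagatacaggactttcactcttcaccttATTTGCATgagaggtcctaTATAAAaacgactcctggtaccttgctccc
HIST1H4H, chr6:26285535-26285734, minus strand: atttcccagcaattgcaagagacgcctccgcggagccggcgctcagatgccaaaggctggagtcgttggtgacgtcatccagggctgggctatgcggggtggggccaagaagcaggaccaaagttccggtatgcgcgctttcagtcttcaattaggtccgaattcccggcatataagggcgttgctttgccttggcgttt
HIST1H2BK holds CCAAT or its complement 5 times, the octamer 49 bases and the TATA box 30 bases before the start. In HIST1H4H these exact letters are not present in the window. It holds tataag close before the start, a form that the search did not count. The groups of genes with and without the octamer were not compared in a test.

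Genes that act on histone mRNA or protein were read beside the histone genes, each list by its own counts. Of 24 genes of histone mRNA transcription and processing, all tested, 0 rose and 0 fell in limma, with a median log2 change of -0.05. Among all tested genes 3.4 percent were called higher and 1.39 percent lower. SLBP, the stem-loop binding protein, was at 54.7, 59.1 and 57.4 FPKM in the controls against 53.8, 49.8 and 53.7 FPKM in HNF4A overexpression, without overlap (adjusted p = 0.294). In 4 genes of the list, SLBP, CPSF3, CCNE1 and E2F1, every HNF4A overexpression library lay below every control library (10.1 percent of all tested genes). In 3, ERI1, MIF4GD and TUT7, it was the reverse (13.8 percent). NPAT, the S phase coactivator of histone genes, was at 5.78, 6.26 and 7.02 FPKM and 4.98, 5.88 and 6.04 FPKM (adjusted p = 0.501). Of the list 2 genes were lower at an unadjusted p under 0.05 and 0 higher, beside 7.29 and 10.8 percent of all tested genes. These are CCNE1 and CCNE2, whose proteins activate CDK2, the kinase of NPAT. CCNE1 averaged 7.24 ± 0.653 and 5.45 ± 0.941 FPKM (adjusted p = 0.151), and CCNE2 10.8 ± 1.18 and 9.03 ± 0.827 FPKM (adjusted p = 0.247). CDK2 itself was at 52.3 to 59.1 and 57.4 to 61.2 FPKM (adjusted p = 0.478), and SRRT, a partner of the cap-binding complex, at 106 to 117 and 112 to 118 FPKM (adjusted p = 0.711).

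Histone variants made outside S phase come mainly from polyadenylated mRNAs. Of 11 histone variant genes listed, 0 passed the threshold in either direction, where 3.4 percent of all tested genes were called higher and 1.39 percent lower. The median log2 change of the 11 was -0.0077. H2AFZ, the gene of the H2A.Z variant, was at 479, 496 and 446 FPKM in the controls against 461, 486 and 446 FPKM in HNF4A overexpression (adjusted p = 0.853). H3F3B, a gene of the H3.3 variant, averaged 428 ± 24.0 and 398 ± 34.1 FPKM (adjusted p = 0.488). H2AFJ, the only gene of the list with an unadjusted p under 0.05, averaged 61.7 ± 5.23 and 71.7 ± 1.99 FPKM (adjusted p = 0.113). Of 22 histone chaperone genes 0 passed, beside the same shares, with a median log2 change of -0.03. Among them NPM1 averaged 1127 ± 67.7 and 1048 ± 75.7 FPKM (adjusted p = 0.491) and SET 309 ± 18.0 and 301 ± 27.5 FPKM (adjusted p = 0.859). At an unadjusted p under 0.05 there was 1 chaperone higher, ANP32E (26.3 ± 0.119 and 30.7 ± 1.87 FPKM, adjusted p = 0.0852), and 0 lower. For the variants and the chaperones alike, the unadjusted shares over all tested genes were 10.8 percent higher and 7.29 percent lower.

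Transcription of these histone genes is tied to S phase, so cell cycle genes were read too. Of 31 tested genes of DNA replication and S phase 0 rose and 0 fell, where 3.4 percent of all tested genes were called higher and 1.39 percent lower. Log2 changes of the 31 lay between -0.14 and 0.15 with a median of -0.01. PCNA, the sliding clamp of DNA polymerases, was at 269.6, 300.2 and 271 FPKM in the controls against 278, 269 and 264 FPKM in HNF4A overexpression (adjusted p = 0.715), and MCM7, a helicase subunit, averaged 299.6 ± 16.2 and 292 ± 12.3 FPKM (adjusted p = 0.814). At an unadjusted p under 0.05 the genes of the replication factor C subunits RFC2 and RFC3 were lower (adjusted p = 0.185 and 0.22) and 0 genes were higher. The shares over all tested genes were 7.29 percent lower and 10.8 percent higher. Of 22 genes of G2 and mitosis 0 passed, beside the same shares of 3.4 and 1.39 percent, with a median log2 change of 0.0063. In lists of this length 0 calls is near those shares. MKI67, the Ki-67 gene, averaged 46.3 ± 3.12 and 42.5 ± 3.10 FPKM (adjusted p = 0.441), UBE2C, the only one of the 22 at an unadjusted p under 0.05, 315 ± 16.6 and 283 ± 15.7 FPKM (adjusted p = 0.216) and CDC20 156 ± 13.96 and 155 ± 16.1 FPKM (adjusted p = 0.978). The same unadjusted shares over all tested genes, 7.29 percent lower and 10.8 percent higher, stand beside UBE2C.

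**Figure D5:**
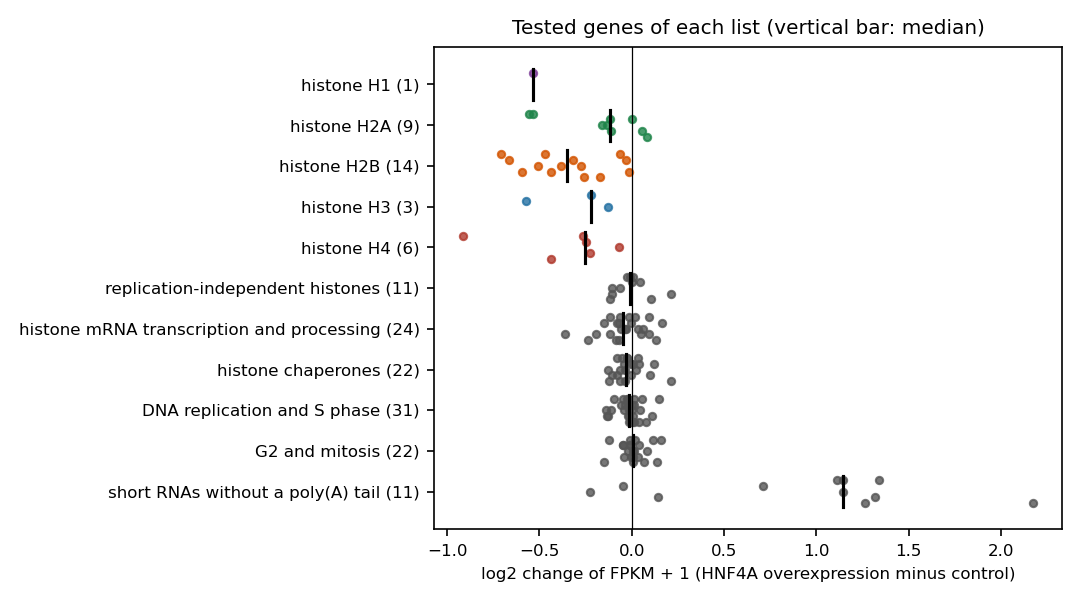
Log2 change of FPKM + 1 (HNF4A overexpression minus control) of every tested gene in each histone class and companion list, one point per gene, with the number of genes in brackets and a bar at the median. The medians of the replication, mitosis, chaperone and replication-independent lists lie within 0.05 of 0, and that of the H2B genes is -0.35.

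Short RNAs that carry no poly(A) tail were also measured. The list held 26, of which 8 were at 0 and 11 were tested. RN7SK and SCARNA10 rose (as did 3.4 percent of all tested genes), 0 fell (1.39 percent), 9 missed the threshold, and the median log2 change was 1.14. At an unadjusted p under 0.05 there were 6 of the 11 higher, RN7SL1, RN7SL2, RN7SL3 and SNORD3A besides these, and 0 lower. The shares over all tested genes were 10.8 percent higher and 7.29 percent lower. RN7SL1, RN7SL2 and RN7SL3 each had their group highs in control 1 and HNF4A overexpression 2, so they may not be separate observations. RN7SK, the scaffold of the 7SK particle that inhibits transcription elongation, rose from 9.11 ± 2.87 to 20.9 ± 3.48 FPKM (adjusted p = 0.0212), and SCARNA10, a guide RNA of Cajal bodies, from 0.812 ± 0.204 to 1.99 ± 0.597 FPKM (adjusted p = 0.0473). RN7SK missed the threshold without HNF4A overexpression 1 (0.0532) and without HNF4A overexpression 3 (0.0633), and SCARNA10 without each library but HNF4A overexpression 3 (0.0701 to 0.143). Without the filter both missed it (0.146 and 0.192), and SCARNA10 also after median scaling (0.050004) and without the trend (0.0507). SCARNA10 reached 1 FPKM in every HNF4A overexpression library but in control 3 alone among the controls. It thus passed the filter with help of the group where it was higher. RMRP, the RNA of RNase MRP, was at 9.80, 7.57 and 0.0104 FPKM in the controls against 4.51, 9.15 and 15.95 FPKM in HNF4A overexpression (adjusted p = 0.557). RMRP stands on more than one row of the table and these are the values of the highest. With its rows summed the log2 change went from 1.11 to 0.32 (adjusted p = 0.48), and without control 3 to 0.03. The summed level of the list ranged from 361 to 1412 FPKM over the control libraries and from 1153 to 2006 FPKM in HNF4A overexpression, and the groups overlapped. Its most abundant gene, RN7SL1, chosen after its values were seen and nearly identical to RN7SL2, was at 725, 143 and 197 FPKM in the controls against 684, 977 and 478 FPKM in HNF4A overexpression. The part of tail-less RNA content in the histone values was not tested.

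Members under the filter gave few readable values. HIST1H3J was at 1.06, 0.958 and 0.288 FPKM in the controls and at 1e-08, 0.189 and 0.106 FPKM in HNF4A overexpression, and it overlaps HIST1H2AM on the same strand and shares 52.8 percent of its windows with it. HIST1H2AD was at 0.0369, 0 and 0.177 FPKM in the controls and at 1.86, 1.44e-05 and 2.54 FPKM in HNF4A overexpression, the highest single value among these 34 genes, and it overlaps AL031777.3 on its own strand. HIST1H2BI was listed at 0 in all 3 controls and at 0.42, 0.412 and 0 FPKM in HNF4A overexpression. These 3 genes were chosen after their values were seen, and no test was run on them.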

How the data were processed

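The authors deposited 1 table of FPKM values for 60694 rows named by symbol, with 6 library columns. Their own means, fold changes and p-values were not used. Per the submitters' processing notes, FastQC, Bowtie, Bowtie2, TopHat, TopHat2, Cufflinks and hg38 were used, with no versions. Neither the annotation nor the strand setting was stated there. FPKM keeps no read counts, so depth is unknown and no counting interval was computed. Values were analysed as log2(FPKM + 1), a scale that understates changes of low genes, with limma 3.58.1 under R 4.3.3, by moderated linear models on group alone whose prior variance followed the mean (the mean-variance trend). Genes with at least 1 FPKM in at least 3 of 6 libraries were tested, at a Benjamini-Hochberg adjusted p under 0.05 over 14106 genes. The script was checked on simulated data. Alternatives were a pseudocount of 0.1, no filter, median scaling, summed rows of a symbol, no trend, the replicate number as a block and leaving out each library. Of rows with the same symbol, that with the highest mean entered. If cultures of a group came from one cell population, p-values measure only the spread between these cultures. HNF4A had an exact permutation test (scipy 1.17.1). Coordinates, transcripts and overlaps came from GENCODE 29 (GRCh38) and promoters from RefSeq (GRCh38.p14), taking the first start by position. Some genes had to be matched by synonym (TUT4 and TUT7).

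The text names every member past the threshold, the 12 most abundant, the 2 most abundant of each class, and from each companion list up to 6 passing genes or else the 2 most abundant, besides SLBP, NPAT, PCNA, MKI67, H2AFZ and RMRP. The members and lists were chosen with earlier results of these data known.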

Additional observations from a re-analysis of the deposited data

How the results depend on the processing

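All genes gave 480 higher and 196 lower calls. Without the filter there were 201 and 49, and leaving out 1 library gave 274 to 313 higher and 87 to 161 lower. Of the histone genes 2 were called lower. The count was 0 without the filter, 1 without the mean-variance trend, and 0 to 5 with 1 library left out, where 5 came without HNF4A overexpression 3 (HIST1H2BC, HIST1H2BD, HIST1H2BK, HIST1H4H and HIST2H3D) and 0 without any other. With the replicate number as a block, 399 genes were called lower in all and 9 histone genes (HIST1H1C, HIST1H2AC, HIST1H2BC, HIST1H2BD, HIST1H2BJ, HIST1H2BK, HIST1H4H, HIST2H2BF and HIST2H3D), while SCARNA10 was no longer called (adjusted p = 0.0672). Same-numbered libraries correlated in their deviations at 0.139, 0.0914 and 0.15, each above the other pairings (-0.124 to -0.0132). Deviations were taken from each group's own mean, so positive same-numbered values push the other pairings below 0 by arithmetic. This is at most a hint from the data and not from the design, so the numbers were not taken to pair the cultures. Without its most abundant gene the log2 ratio of the summed FPKM was -0.19 for H1, -0.022 for H2A, -0.18 for H4 and -0.063 for HIST3. These sums otherwise moved by less than the spread between replicates. Signs turned only near 0: HIST3H2A was at -0.0097 after median scaling, and with 1 library left out HIST3H2A spanned -0.047 to 0.035, HIST1H4J -0.15 to 0.056, CDC20 -0.0896 to 0.052, H2AFZ -0.071 to 0.0055, PCNA -0.077 to 0.00026 and SET -0.10 to 0.028. The cause of these shifts was not tested. FPKM values hold no read counts, so the depth behind low members is unknown. Levels of members annotated as coding sequence alone depend on the assumed length, and members that share sequence cannot be told apart one by one.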
